A study of Homo sapiens with 414 samples.

Results

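The genes of glycolysis and of the hypoxia response were examined in single LNCaP cells after an siRNA against SULT2B1 or a non-targeting control siRNA. They are 33 genes of the 36135 in the count table, chosen by name: 3 transporters of glucose or lactate, 17 glycolytic enzymes including both lactate dehydrogenase subunits, 3 regulators of glycolytic or pyruvate flux, and 10 genes known for induction under low oxygen. LNCaP is a human prostate carcinoma line that grows in response to androgen, and SULT2B1 encodes a sulfotransferase that adds sulfate to cholesterol and related sterols. Knockdown cells received the SULT2B1 siRNA from IDT and control cells a non-targeting siRNA from Dharmacon, so the arms differ in supplier as well as target. Harvest followed transfection by 48 h in both arms, and cells were caught 1 to a site on a Fluidigm C1 microfluidic plate made for large cells, where dead cells and sites without exactly 1 cell were excluded under the microscope. The 192 knockdown cells came as 66, 65 and 61 cells in batches 1, 2 and 3, and the 209 control cells as 76, 66 and 67. Each batch held both arms. Whether batches were separate cultures is not in the labels, so the spread behind each p-value is that of these 3 batches and may be technical.

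Glycolysis splits glucose into pyruvate in the cytosol and yields ATP without oxygen, and lactate dehydrogenase then reduces pyruvate to lactate. Under low oxygen the transcription factor HIF-1 is stabilised, binds the short motifs ACGTG and GCGTG near its target genes, and raises glucose transporters, most glycolytic enzymes and the kinase PDK1, which holds pyruvate back from the citric acid cycle. Prostate luminal epithelium is known for making and secreting citrate, an intermediate that most tissues burn, and several steps of glycolysis are run by isozymes, different genes for the same reaction.

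The reads assigned to genes ranged over cells from 169244 to 2353816 (median 1150826), and the libraries summed over the cells of an arm and batch held between 71630108 and 84359044 reads. SULT2B1 lay between 0 and 0.284 CPM, the reads of a gene scaled to a common library total, in knockdown libraries, against 1.49 to 4.28 CPM in control libraries. Its log2 fold change was -4.13 (adjusted p = 0.268 by edgeR's quasi-likelihood test with Benjamini-Hochberg adjustment), so the targeted gene was lower in each knockdown library but did not pass the test at this low level. Cells with over 20% of reads in mitochondrially encoded genes numbered 6, 0 and 2 in knockdown batches 1, 2 and 3 and 21, 8 and 6 in control batches, or 8 of 192 against 35 of 209. The 9 luminal markers summed to between 2662 and 3988 CPM in knockdown libraries and between 5000 and 6046 CPM in control libraries, and 2 of them passed the test, KLK3 (log2 fold change -1.51, adjusted p = 0.0416) and KLK2 (-1.26, 0.0446), both androgen-regulated proteases. Proliferation markers, 4 in all, summed to 208 to 282 CPM in knockdown libraries and 478 to 694 CPM in control libraries, and 0 of 4 passed. Basal, neuroendocrine and blood markers stayed at or below 1.21 summed CPM in every library, with HBB and CD3E at 0 throughout. Mesenchymal markers summed to 2.28 to 9.28 CPM in knockdown and 4.96 to 12.4 CPM in control libraries, and endothelial markers to 3.79 to 4.72 CPM in knockdown and 0.957 to 11.2 CPM in control libraries. The luminal, proliferation and mitochondrial differences moved with the arm, and their part in the results on glycolysis and hypoxia genes was not tested.

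The share of all reads held by the 33 genes together differed between the arms by less than the spread between batches. They held 1.84% ± 0.181 of reads in knockdown libraries and 1.85% ± 0.259 in control libraries (SD, n = 3 each). PDK1 and HK2, a hexokinase that phosphorylates glucose at the start of the pathway, were lower in every knockdown library than in any control library. GAPDH, an enzyme in the middle of the pathway, was higher in every knockdown library than in any control library. None of these passed the adjusted p of 0.05 in edgeR's fit of all cells. When cells over 20% mitochondrial reads were left out, PDK1 was at 0.582 times its level in control cells with an edgeR adjusted p of 0.04998, a call that was lost with batch as a block (0.0997) and with any 1 library left out.

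Of the 33 genes, 30 had enough reads to be tested and 3 did not. By edgeR's quasi-likelihood test on the 6 summed libraries, 0 of 30 passed an adjusted p of 0.05, where 158 of all 20326 genes tested did, or 0.777%. At an unadjusted p under 0.05 there were 6 genes, where 13.5% of all genes passed. Of the 30, 2 were higher in knockdown (6.67% against 6.40% of all genes) and 4 lower (13.3% against 7.08%). DESeq2 called 2 of the 30, PDK1 (adjusted p = 0.00175) and HK2 (adjusted p = 0.000769), against 7.09% of all genes. The median log2 fold change of the 30 was -0.14, beside 0.01 for all genes tested, and the middle of the distribution ran from -0.49 to 0.14 (lower to upper quartile) for these genes and from -0.44 to 0.45 for all genes. That median moved with the setting: it was -0.28 with batch as a block, -0.013 with equal weight per cell (15 positive and 15 negative, beside 0.06 for all genes), and -0.34 to -0.045 with a library left out. Without cells over 20% mitochondrial reads, 1 of 30 passed in edgeR's fit, against 0.985% of all genes, and the median was -0.24 beside 0.01 for all genes. With those cells left out 11 log2 fold changes were positive and 19 negative, and in all cells 13 were positive and 17 negative. Without cells over 20% mitochondrial reads, 9 of 30 had an edgeR unadjusted p under 0.05, 2 higher and 7 lower, where 2714 of all 20110 genes did. Counts past an adjusted p of 0.05 do not set the genes apart as a group. At an unadjusted p in all cells, lower genes took a larger share of the 30 than of all genes, which is a description.

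**Figure D1:**
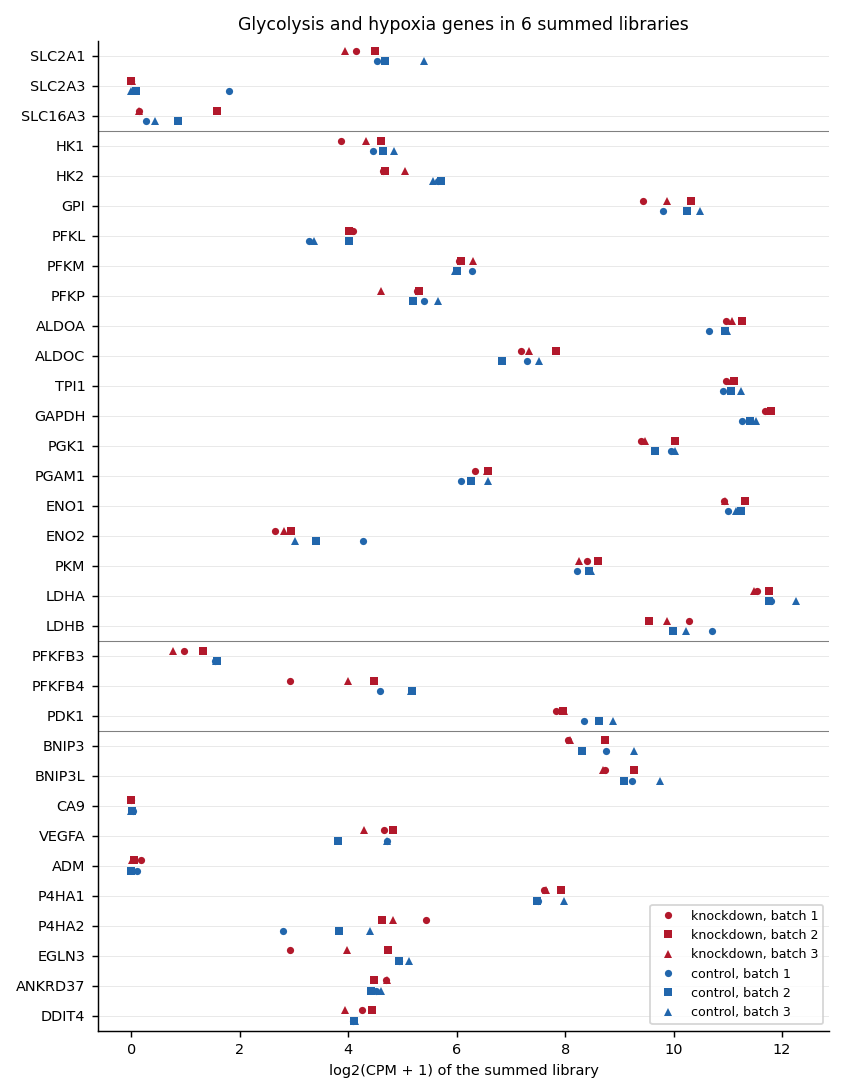
Level of each of the 33 genes in the 6 summed libraries, as log2(CPM + 1) on the horizontal axis. Each row is a gene, grouped by role from transport at the top to hypoxia-induced genes at the bottom; red points are knockdown libraries, blue points control libraries, and the shape gives the batch. HK2 and PDK1 have all 3 red points left of all 3 blue points, and GAPDH has them to the right.

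**Figure D2:**
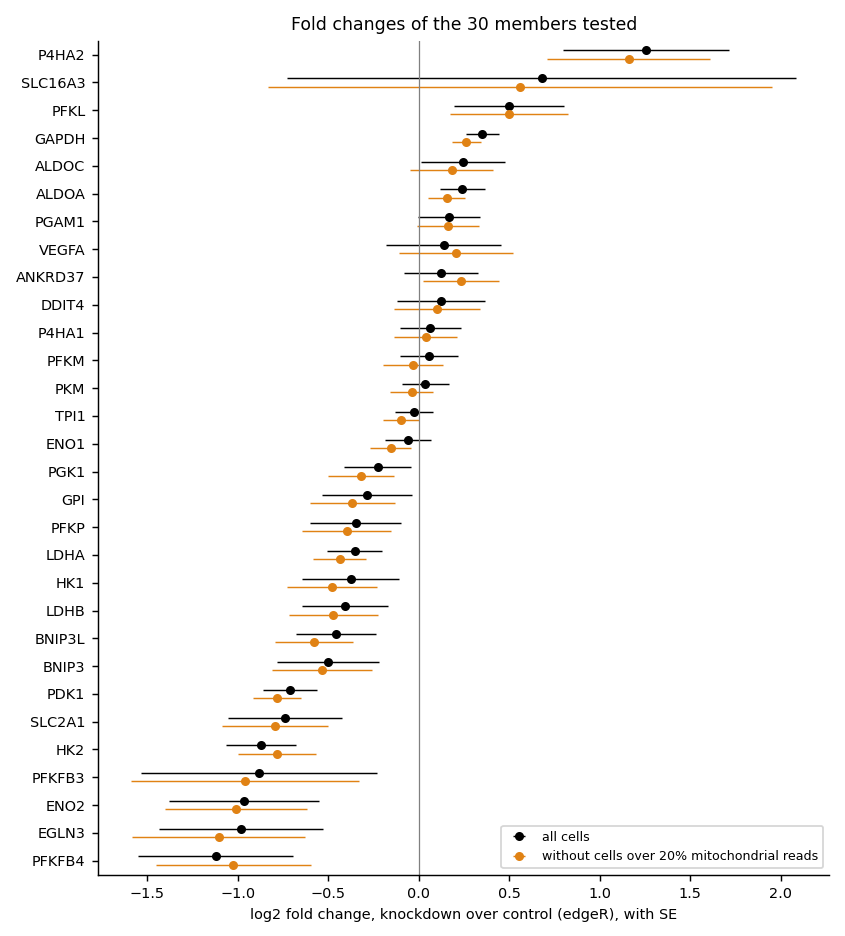
Log2 fold change, knockdown over control, of the 30 genes tested by edgeR, in all cells (black) and without cells over 20% mitochondrial reads (orange); bars are the standard error of each fit. Values run from -1.12 for PFKFB4 to 1.26 for P4HA2 in all cells, and the orange points lie near the black ones.

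Of the 3 genes for transport of glucose into the cell and of lactate out of it, SLC2A1, which encodes the glucose transporter GLUT1, had by far the most reads. SLC2A1 (ENSG00000117394, chromosome 1, 42925375 to 42959176, minus strand, GRCh38) had 16.7, 21.6 and 14.3 CPM in knockdown batches 1, 2 and 3, against 22.1, 24.5 and 41.3 CPM in control batches. All 3 knockdown values lay below all 3 control values, and the highest of the 6, in control batch 3, stood well above the rest. The log2 fold change was -0.74 ± 0.31 (SE; adjusted p = 0.368 by edgeR). SLC2A3, which encodes the high-affinity transporter GLUT3, had 1 read in the knockdown arm and 185 in the control arm, of which 181 fell in control batch 1, where 3 cells had any read and 1 of them held 96.7% of the reads. Nearly all of the control signal of SLC2A3 thus came from 1 cell, and the gene was not tested. SLC16A3, the lactate exporter MCT4, stayed at or below 2.00 CPM in every library. A read of SLC16A3 was found in 12 of 192 knockdown cells and 16 of 209 control cells, and its log2 fold change of 0.68 ± 1.41 had a standard error larger than the value. It turned to -0.50 when batch was fitted as a block.

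Among the 17 glycolytic enzymes, 7 log2 fold changes were positive and 10 negative, from -0.96 for ENO2 to 0.50 for PFKL, with a median of -0.06 and 0 passing the test. Their summed share of reads was 1.70% ± 0.154 in knockdown libraries and 1.67% ± 0.216 in control libraries. HK2 had the smallest p of the 17 enzymes in that fit. HK2 (ENSG00000159399, chromosome 2, 74833981 to 74893359, plus strand) had 24.1, 24.6 and 32.0 CPM in knockdown batches 1, 2 and 3, against 49.5, 51.6 and 46.3 CPM in control batches. The highest knockdown library was below the lowest control library, and the within-batch log2 differences were -1.01, -1.04 and -0.52. The level was 0.547 times that of control cells, a log2 fold change of -0.87 ± 0.19 (SE) with an adjusted p of 0.104 by edgeR's quasi-likelihood test. A read of HK2 was found in 60.5% ± 1.92 of knockdown cells and 79.7% ± 5.28 of control cells (SD over 3 batches; exact permutation p = 0.1, the smallest that 3 against 3 can give). At an equal depth of 100000 reads a cell, drawn at random, HK2 had a read in 48.8% of knockdown cells and 67.5% of control cells. HK1, the housekeeping hexokinase, had 13.6, 23.3 and 19.1 CPM in knockdown libraries and 20.9, 23.9 and 27.8 CPM in control libraries, which overlap. Without cells over 20% mitochondrial reads HK1 lay at 14.4, 23.6 and 19.97 CPM in knockdown and 24.9, 26.5 and 29.4 CPM in control libraries, which do not.

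GAPDH, which oxidises glyceraldehyde 3-phosphate and passes electrons to NAD, was higher in knockdown cells by a modest amount in each batch. GAPDH (ENSG00000111640, chromosome 12, 6533927 to 6538374, plus strand) had 3302, 3532 and 3495 CPM in knockdown batches, against 2443, 2717 and 2933 CPM in control batches. Every knockdown library exceeded every control library. The level was 1.28 times that of control cells (log2 0.35 ± 0.09 SE, edgeR adjusted p = 0.148), and 1.20 times without cells over 20% mitochondrial reads (edgeR adjusted p = 0.190). The liver-type phosphofructokinase PFKL (chromosome 21, 44300051 to 44327376, plus strand), an isozyme of the main control step of the pathway, had 16.1, 15.1 and 15.6 CPM in knockdown libraries and 8.70, 15.07 and 9.29 CPM in control libraries. The highest control value, in batch 2, was almost equal to the lowest knockdown value, and without cells over 20% mitochondrial reads the arms overlapped. The other phosphofructokinases PFKM and PFKP had log2 fold changes of 0.06 and -0.35 with overlapping libraries.

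The enzymes of highest level per kilobase of transcript were TPI1, GAPDH and LDHA, at 1734, 1637 and 1463 CPM per kb over all libraries. TPI1 (ENSG00000111669, chromosome 12, 6867119 to 6870948, plus strand), the triose phosphate isomerase, had 2008, 2216 and 2119 CPM in knockdown libraries and 1919, 2131 and 2416 CPM in control libraries. The arms overlapped fully, with a log2 fold change of -0.03 ± 0.10 (SE). LDHA (ENSG00000134333, chromosome 11, 18394388 to 18408425, plus strand), the subunit of lactate dehydrogenase that favours lactate formation, had 2965, 3477 and 2874 CPM in knockdown libraries and 3552, 3449 and 4897 CPM in control libraries. The knockdown library of batch 2 lay above the control library of its own batch, and control batch 3 stood above all others. The log2 fold change was -0.35 ± 0.15 (SE, edgeR adjusted p = 0.381), and -0.44 ± 0.15 (adjusted p = 0.243) without cells over 20% mitochondrial reads, where the arms no longer overlapped. LDHB, the subunit that favours pyruvate formation, had within-batch log2 differences of -0.42, -0.46 and -0.34 of similar size, although its libraries overlapped between the arms. The neuronal enolase ENO2 (chromosome 12, 6913745 to 6923698, plus strand) had 5.28, 6.70 and 6.001 CPM in knockdown libraries and 18.3, 9.65 and 7.09 CPM in control libraries. The knockdown libraries lay close together below a wide control range. Between 18.9% and 49.6% of the ENO2 reads of a control library came from its single highest cell, so a few cells set those levels. The log2 fold change of ENO2 was -0.96 ± 0.42 (SE, edgeR adjusted p = 0.376). The ubiquitous enolase ENO1, by contrast, overlapped between the arms at -0.06 ± 0.13. ALDOA, the main aldolase, was higher in knockdown in all 3 batches, with a log2 fold change of 0.24 ± 0.12 (edgeR adjusted p = 0.460), but its libraries overlapped. GPI, ALDOC, PGK1, PGAM1 and PKM had log2 fold changes between -0.29 and 0.25, and none had the same direction in all 3 batches.

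The 3 regulators of flux were all lower in knockdown libraries, with a median log2 fold change of -0.88, and in all cells their libraries did not overlap between the arms. Together they held 0.0264% ± 0.00206 of reads in knockdown libraries and 0.0420% ± 0.00915 in control libraries, most of it from PDK1. PDK1 (ENSG00000152256, chromosome 2, 172555373 to 172608669, plus strand) encodes pyruvate dehydrogenase kinase 1, which phosphorylates and inactivates the enzyme complex that feeds pyruvate into the citric acid cycle. It had 226.8, 248.7 and 250.6 CPM in knockdown batches 1, 2 and 3, against 325.8, 391.6 and 472.1 CPM in control batches. The knockdown libraries were tightly grouped and all lay below the lowest control library. The mean was 242 ± 13.2 CPM in knockdown and 396 ± 73.3 CPM in control (SD, n = 3 each), a log2 fold change of -0.71 ± 0.15 (SE) with an adjusted p of 0.0958 by edgeR's quasi-likelihood test. Within batches the log2 difference was -0.52, -0.65 and -0.91.

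Leaving out cells over 20% mitochondrial reads put PDK1 at 235.7, 252.4 and 262.8 CPM in knockdown libraries and 377.3, 410.8 and 502.6 CPM in control libraries. The gap widened on the control side, where more cells were removed. On these libraries PDK1 fell in knockdown, by edgeR's test at log2 -0.78 ± 0.13 (SE) with an adjusted p of 0.04998, a call at the very edge of the threshold. With batch as a block in the same cells the log2 fold change was -0.77 and the adjusted p 0.0997, so the call does not hold in the paired fit, and with any 1 library left out the adjusted p was 0.0849 to 0.173. In the cells, PDK1 had a median log2(CPM + 1) of 6.90 in knockdown and 7.77 in control, and a read of it was found in 81.2% ± 5.53 of knockdown cells and 89.7% ± 6.91 of control cells (exact permutation p = 0.3). The mean over cells of log2(CPM + 1) was 5.45 ± 0.11 in knockdown batches and 6.41 ± 0.47 in control batches (SD, n = 3 each; exact permutation p = 0.1).

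PFKFB4 and PFKFB3 encode bifunctional enzymes that make and break fructose 2,6-bisphosphate, a strong activator of phosphofructokinase. PFKFB4 (ENSG00000114268, chromosome 3, 48517684 to 48562015, minus strand) had 6.64, 21.2 and 14.9 CPM in knockdown libraries and 22.9, 35.3 and 34.7 CPM in control libraries. The highest knockdown value came close to the lowest control value, and without cells over 20% mitochondrial reads the arms overlapped, at up to 21.5 CPM in knockdown and down to 21.05 CPM in control libraries. The level was 0.460 times that of control cells (log2 -1.12 ± 0.43 SE, edgeR adjusted p = 0.315). A read of PFKFB4 was found in 27.2% ± 6.77 of knockdown cells and 40.8% ± 6.03 of control cells (exact permutation p = 0.1), and at equal depth in 18.8% of knockdown and 29.8% of control cells. PFKFB3 (chromosome 10, 6144934 to 6254644, plus strand) had 0.96, 1.51 and 0.70 CPM in knockdown libraries and 1.92, 1.97 and 1.96 CPM in control libraries. At this level few cells carried it, 22 of 192 knockdown cells and 37 of 209 control cells, and between 46.8% and 53.6% of the reads of a knockdown library came from 1 cell. The fold change of PFKFB3 was -0.88 ± 0.65 on the log2 scale (SE, edgeR adjusted p = 0.656).

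**Figure D3:**
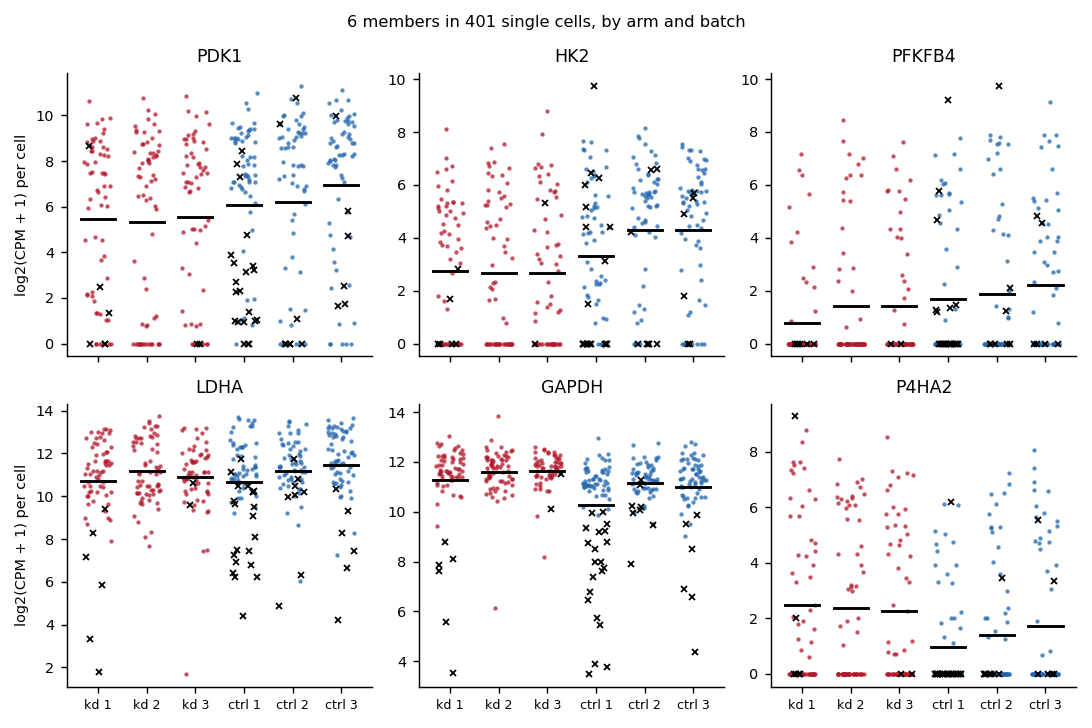
Levels of 6 genes in 401 single cells, as log2(CPM + 1) on the vertical axis, with knockdown (kd, red) batches 1 to 3 left of control (ctrl, blue) batches 1 to 3. Each point is a cell, crosses mark cells over 20% mitochondrial reads, and the bar is the mean over cells. For HK2 the median is 2.32 in knockdown and 4.75 in control cells, whereas for GAPDH it is 11.69 in knockdown and 11.20 in control cells, and most crosses lie at the bottom of the GAPDH and LDHA panels.

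The 10 hypoxia-induced genes did not share 1 direction. Among the 8 tested, 5 log2 fold changes were positive and 3 negative, from -0.98 to 1.26, with a median of 0.10 and 0 passing. P4HA2 (ENSG00000072682, chromosome 5, 132191838 to 132295315, minus strand) encodes a catalytic subunit of prolyl 4-hydroxylase, which modifies collagen. It had 42.4, 23.7 and 27.5 CPM in knockdown batches 1, 2 and 3, against 5.95, 13.2 and 20.1 CPM in control batches. Every knockdown library was above every control library, but the size of the difference varied widely, with within-batch log2 values of 2.65, 0.80 and 0.44. The log2 fold change was 1.26 ± 0.46 (SE, edgeR adjusted p = 0.293). A read of P4HA2 was found in 51.0% ± 1.91 of knockdown cells and 32.3% ± 5.23 of control cells (exact permutation p = 0.1), and at equal depth in 36.5% of knockdown and 24.7% of control cells. EGLN3 (chromosome 14, 33924231 to 34462774, minus strand), an oxygen-sensing hydroxylase that marks HIF for degradation and is itself a HIF target, had 6.59, 25.5 and 14.8 CPM in knockdown libraries and 29.5, 29.4 and 33.6 CPM in control libraries. The control libraries lay close together above a scattered knockdown range, and the log2 fold change was -0.98 ± 0.45 (SE, edgeR adjusted p = 0.412). Without cells over 20% mitochondrial reads EGLN3 overlapped between the arms, at up to 25.9 CPM in knockdown and down to 25.5 CPM in control libraries.

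The mitophagy receptors BNIP3 and BNIP3L, which tag mitochondria for removal, had log2 fold changes of -0.50 ± 0.28 and -0.46 ± 0.22 with overlapping libraries. In both genes the knockdown library exceeded the control library in batch 2 and lay below it in batches 1 and 3. VEGFA, the angiogenic growth factor, P4HA1, the main prolyl hydroxylase subunit, DDIT4, an inhibitor of mTORC1, and ANKRD37 had log2 fold changes between 0.07 and 0.14, each smaller than its standard error. CA9, the carbonic anhydrase that is a common marker of hypoxic tumour cells, had a read in 0 of 192 knockdown cells, which allows a share of cells with a read of up to 1.56% by counting error alone, over the pooled batches, and 3 reads in 2 of 209 control cells. ADM, which encodes the vasodilator adrenomedullin, had 14 reads in 5 of 192 knockdown cells and 6 reads in 1 of 209 control cells. Neither was tested, and both arms lay near the detection limit for these 2 classical hypoxia genes.

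Counting genes by overlap gave more lower genes than the background share. In all cells the CPM of 3 genes, PFKL, GAPDH and P4HA2, were higher in each knockdown library than in any control library, or 10% of the 30 against 10.5% of all genes tested. Those of 7 genes, HK2, ENO2, SLC2A1, PDK1, EGLN3, PFKFB3 and PFKFB4, were lower, or 23.3% of the 30 against 10.1%. Without cells over 20% mitochondrial reads, 2 tested genes were higher without overlap, GAPDH and P4HA2, or 6.67% of the 30 against 10.7% of all genes. In those libraries 7 were lower, HK1, HK2, ENO2, LDHA, SLC2A1, PDK1 and PFKFB3, or 23.3% of the 30 against 10.4% of all genes. The genes were chosen with results of these data known, so the excess of lower genes is a description. Direction was the same in all 3 batches for 5 higher and 9 lower genes of the 30. The share of all genes with 1 direction in all 3 batches was not computed, so these counts cannot be weighed against it. By batch, the median log2 difference of the tested genes was -0.18, 0.07 and -0.33 in batches 1, 2 and 3, so batch 2 did not share the negative median of the others. Without the cells over 20% mitochondrial reads the medians were -0.28, -0.01 and -0.37.

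Windows before a transcription start are shown for 5 of the genes described above, because HIF-1 is known to act through the motifs named above. These 5 genes lay apart between the arms or led in level. ENO2, SLC2A1, EGLN3, PFKFB3, PFKFB4, PFKL and TPI1 met the same rule and are not shown, so the 5 are a selection. The windows come from RefSeq on GRCh38.p14 and were used for 30 of the 33 genes. Each line gives the 250 bases before a transcription start, 5′ to 3′ on the gene's strand, and capitals mark ACGTG or GCGTG on either strand (CACGT or CACGC where the match is on the other strand). CACGTG holds ACGTG on both strands and counts as 2 matches.
PDK1, chr2:172555123-172555372, plus strand: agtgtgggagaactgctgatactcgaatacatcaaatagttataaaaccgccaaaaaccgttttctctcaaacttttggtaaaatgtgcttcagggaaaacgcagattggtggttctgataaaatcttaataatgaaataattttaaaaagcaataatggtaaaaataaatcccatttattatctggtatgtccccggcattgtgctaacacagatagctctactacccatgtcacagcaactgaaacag
PDK1, chr2:172555840-172556089, plus strand: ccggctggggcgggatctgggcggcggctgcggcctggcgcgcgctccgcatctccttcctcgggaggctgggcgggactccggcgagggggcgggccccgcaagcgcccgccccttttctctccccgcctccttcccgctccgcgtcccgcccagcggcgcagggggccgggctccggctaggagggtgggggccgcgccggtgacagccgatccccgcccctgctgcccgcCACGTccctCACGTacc
HK2, chr2:74834920-74835169, plus strand: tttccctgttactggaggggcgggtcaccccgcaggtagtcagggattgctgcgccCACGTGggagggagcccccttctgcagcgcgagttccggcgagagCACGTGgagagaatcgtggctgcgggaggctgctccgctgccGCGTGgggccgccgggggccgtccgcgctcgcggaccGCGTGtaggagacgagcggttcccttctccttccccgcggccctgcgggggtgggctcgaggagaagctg
LDHA, chr11:18394313-18394562, plus strand: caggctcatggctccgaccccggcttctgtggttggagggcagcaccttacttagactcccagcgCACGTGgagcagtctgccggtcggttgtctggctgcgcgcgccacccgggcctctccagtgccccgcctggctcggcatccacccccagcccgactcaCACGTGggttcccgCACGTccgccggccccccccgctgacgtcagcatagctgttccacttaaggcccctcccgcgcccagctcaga
GAPDH, chr12:6535014-6535263, plus strand: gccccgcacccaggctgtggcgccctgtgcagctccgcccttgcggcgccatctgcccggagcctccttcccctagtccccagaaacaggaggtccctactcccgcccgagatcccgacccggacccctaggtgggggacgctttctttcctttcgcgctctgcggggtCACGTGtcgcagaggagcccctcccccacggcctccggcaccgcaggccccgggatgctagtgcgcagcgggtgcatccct
P4HA2, chr5:132227092-132227341, minus strand: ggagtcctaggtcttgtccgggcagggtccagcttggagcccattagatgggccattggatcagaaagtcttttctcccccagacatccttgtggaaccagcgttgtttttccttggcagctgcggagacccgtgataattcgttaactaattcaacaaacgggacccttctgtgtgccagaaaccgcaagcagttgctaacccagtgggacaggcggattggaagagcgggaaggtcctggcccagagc

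The upstream PDK1 start had no match in these letters and the downstream one had a pair of ACGTG matches on the other strand, at -17 and -8 from the start. HK2 had 6 matches in the 300-base window shown in part here, and another HK2 start had 3. Another LDHA start, not shown, had 1 match. Of the lower genes not shown, EGLN3 had no match, and SLC2A1 had 1 in 300 bases but none in the 250 before its start. ENO2, PFKFB3 and PFKFB4 had at least 1 match in each window. The GAPDH window, of a gene that was higher in knockdown, held a CACGTG at -81, while the window of P4HA2, also higher, held no match. Both windows lie inside the annotated span of their gene (GAPDH from 6533927, P4HA2 on the minus strand from 132295315). They thus belong to an inner start, and no window at the outermost start of these genes was used. In windows of 300 bases, 250 before and 50 after the start, 37 of 56 windows of the listed genes, or 66.1%, held ACGTG or GCGTG, against 48.4% of 35116 windows of all genes. CACGTG was in 14.3% of the windows of the listed genes and in 7.26% of all windows. The motif was thus found in windows of HK2, lower in knockdown, and of GAPDH, higher in knockdown. A match of letters is a description, not evidence of binding.

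Several reactions are run by more than 1 isozyme, and the share of each was compared per kilobase of transcript. Across 8 isozyme groups and 17 isozymes, the pairs of enolases and of prolyl hydroxylase subunits reached p = 0.1 in the exact permutation test over 6 libraries, the smallest value possible, and none passed adjustment. Shares of a pair are complements, so each pair is a single result. P4HA2 made up 15.6%, 7.69% and 10.5% of P4HA1 and P4HA2 together in knockdown batches 1, 2 and 3, against 2.73%, 5.93% and 6.40% in control batches. Every knockdown share was above every control share, at 11.3% ± 4.04 in knockdown and 5.02% ± 2.00 in control libraries (SD, n = 3 each; exact permutation p = 0.1, adjusted p = 0.42). ENO2 made up 0.23% ± 0.02 of the enolases in knockdown and 0.44% ± 0.26 in control libraries, so ENO1 held nearly all enolase reads in both arms. HK2 made up 47.8% ± 7.01 of the hexokinases in knockdown and 56.0% ± 4.47 in control libraries (exact permutation p = 0.3), shares that overlapped between the arms although the HK2 levels did not. LDHA made up 67.0% ± 7.40 of lactate dehydrogenase subunit reads in knockdown and 66.0% ± 7.61 in control libraries (exact permutation p = 0.8), and ALDOA made up 93.9% ± 0.83 of the aldolases in knockdown and 93.8% ± 1.53 in control libraries.

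**Figure D4:**
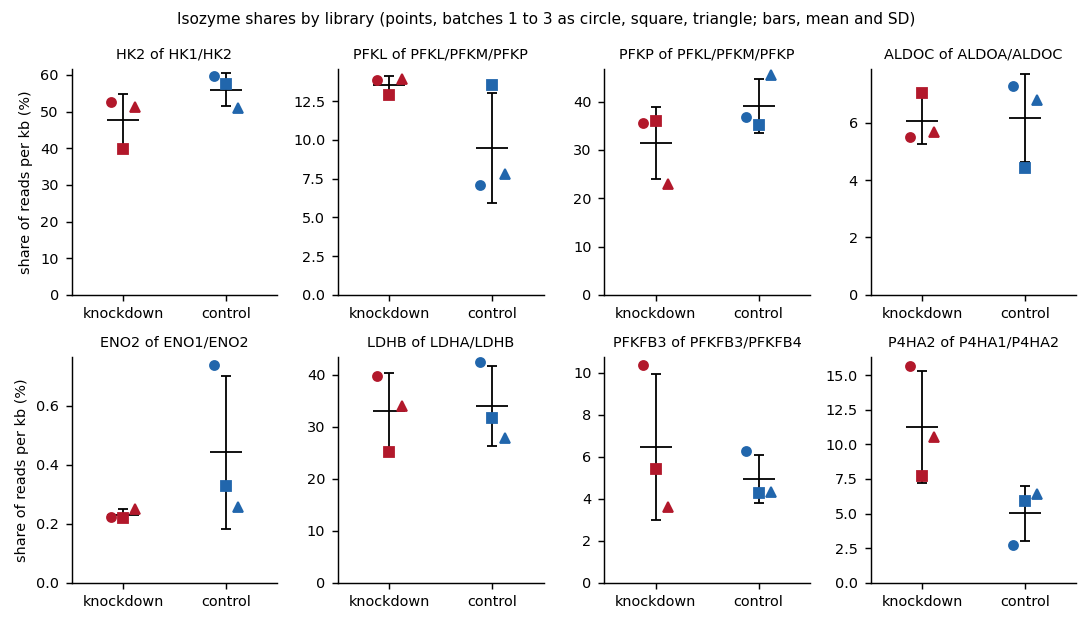
Share of 8 isozymes within their isozyme group, in percent of reads per kilobase on the vertical axis, with knockdown (red) left of control (blue). Points are libraries with the batch as shape, the horizontal bar is the mean and the whiskers the SD over 3 batches. P4HA2 is the panel where the arms stand apart most, at 7.69% to 15.6% in knockdown and 2.73% to 6.40% in control, and LDHB overlaps fully.

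Cells over 20% mitochondrial reads had low levels of most of the listed genes, and a higher mitochondrial share lowers the CPM of every other gene. In control cells 27 of the 33 genes were lower in those cells than in the other cells in all 3 batches, and 0 were higher in all 3. All 27 were among the 30 tested genes, and 58.9% of all tested genes were likewise lower. With mitochondrial reads left out of the total, a setting chosen after seeing the data, the count was 25 of 30, against 53.9% of all tested genes. The median difference over the 33 genes was -2.58, -1.57 and -1.66 in log2(CPM + 1) in control batches 1, 2 and 3. Over all tested genes it was -0.54, -0.33 and -0.32. With mitochondrial reads left out of the total it was -1.69, -1.74 and -1.73 over the 30 tested genes of the list. Over all tested genes it was then -0.42, -0.29 and -0.28. A gene near 0 on this scale can fall little, and all tested genes were not matched to the listed ones for level. PDK1 differed by -4.52, -4.01 and -2.80 and GAPDH by -3.81, -1.31 and -3.73. With mitochondrial reads left out of the total PDK1 differed by -3.67, -3.97 and -2.46 and GAPDH by -2.68, -1.02 and -3.35. The listed genes took a median of 0.428%, 0.556% and 0.340% of the reads of those cells in control batches, while the medians over all cells were 1.27%, 1.501% and 1.69%. Of 43 such cells, 35 were control cells. Without them the listed genes held 1.88% ± 0.147 of reads in knockdown and 2.03% ± 0.191 in control libraries (SD, n = 3 each). Leaving them out brought the arms closer for GAPDH (1.20 in place of 1.28 times) and moved them apart for PDK1 (0.582 in place of 0.610 times).

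**Figure D5:**
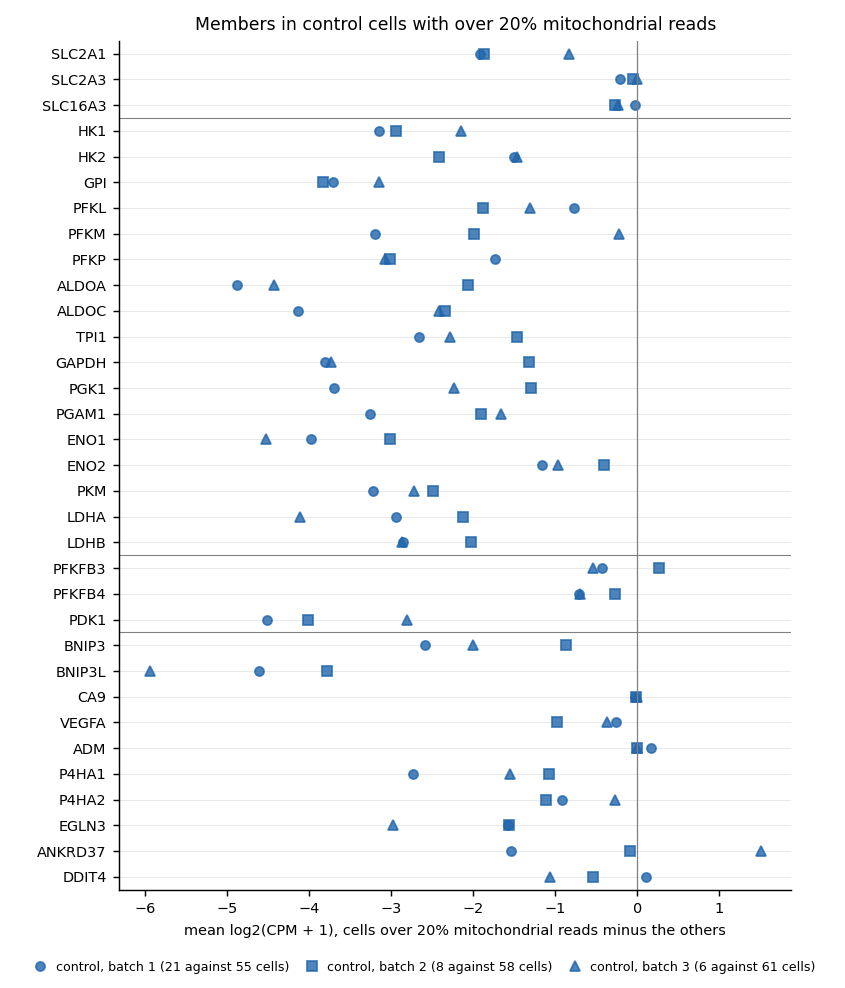
Difference in mean log2(CPM + 1) between control cells over 20% mitochondrial reads and the other control cells of the same batch, on the horizontal axis, for each of the 33 genes. Points are batches, with the number of cells over and under the limit in the legend, and 0 marks no difference. Nearly every point lies left of 0, with BNIP3L, ALDOA, ENO1 and PDK1 among the lowest and ANKRD37 in batch 3 the clearest exception.

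Detection followed level only in broad terms. Among control cells not over 20% mitochondrial reads, PFKL had a read in 67.3%, 86.2% and 78.7% in batches 1, 2 and 3. PFKFB4 had one in 38.2%, 37.9% and 49.2%, although its mean over all libraries was higher (22.6 against 13.3 CPM). In every library, 10 genes had a read in at least 95% of cells: GPI, ALDOA, TPI1, GAPDH, PGK1, ENO1, PKM, LDHA, LDHB and BNIP3. Another 5, SLC2A3, SLC16A3, CA9, ADM and PFKFB3, had one in under 20% of cells of every library. For the share of cells with a read, 5 genes reached the smallest exact permutation p of 0.1 (HK2, P4HA2, ANKRD37, PFKFB4 and ADM), with an adjusted p of 0.66. Of the 30 tested genes that is 4, or 13.3%, against 21.2% of all genes, and without cells over 20% mitochondrial reads 5 of 30 did, against 19.5%. For the mean level over cells 7 did (HK2, PFKL, GAPDH, PDK1, P4HA2, PFKFB3 and PFKFB4, adjusted p = 0.471), or 23.3% of the 30 tested against 24.0% of all genes. Without cells over 20% mitochondrial reads 14 genes did (adjusted p = 0.236), of which 13 were among the 30 tested, or 43.3% against 23.8% of all genes. The names and directions of those 14 genes are not given here. In all cells the difference in mean level had the direction of the summed libraries for 4 genes. These were HK2 (-1.28), PDK1 (-0.96), P4HA2 (1.00) and GAPDH (0.69), in log2(CPM + 1). Equal weight per cell made the GAPDH difference larger than in the summed libraries, and without cells over 20% mitochondrial reads it was 0.33.

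Some pairs of glycolytic enzymes were correlated between cells, and others only weakly. Over the 23 genes with a read in at least 50% of cells, 16 of 253 pairs had a Spearman correlation of at least 0.5 in every library, and they involved 8 genes: ALDOA, GPI, TPI1, GAPDH, ENO1, PKM, LDHA and BNIP3. TPI1 and LDHA correlated at 0.686 to 0.886 over the 6 libraries and GAPDH and ENO1 at 0.649 to 0.832. The median over all pairs was 0.2496, and weak pairs included GAPDH and LDHB (0.128 to 0.603) and HK2 and TPI1 (0.081 to 0.492). These are descriptions over cells that share a library and differ in depth and in mitochondrial share. ENO1 correlated with the mitochondrial share at -0.768 to -0.198.

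Genes around the pathway, from lists that hold none of the 33, had 0 genes past the threshold in edgeR's fit of all cells, whereas DESeq2 called 3 of 31 other hypoxia-induced genes, 1 of 13 other glycolytic enzymes, 5 of 20 citric acid cycle genes and 0 of the other lists, where it called 7.09% of all genes. Of 31 tested other hypoxia-induced genes (36 listed), 8 were lower and 0 higher at an unadjusted p under 0.05 in edgeR's fit, or 25.8% where 13.5% of all genes were, and the median log2 fold change was -0.46. STC1, the secreted hormone stanniocalcin 1, had 8.46 ± 5.597 CPM in knockdown and 32.1 ± 8.54 CPM in control libraries (SD, n = 3 each; log2 -1.92, edgeR adjusted p = 0.154). AK4, a mitochondrial adenylate kinase named here after its values were seen, had 197 ± 27.6 CPM in knockdown and 324 ± 15.8 CPM in control libraries and an edgeR adjusted p of 0.062, against 0.038 without cells over 20% mitochondrial reads. In those cells the edgeR adjusted p of AK4 was 0.122 with batch as a block and 0.0637 to 0.155 with a library left out. ZNF395 had a log2 fold change of -1.20 (edgeR adjusted p = 0.278). The 15 tested HIF pathway regulators had 1 higher and 1 lower at an unadjusted p under 0.05 and a median of -0.17. HIF1A, the oxygen-regulated subunit of the factor itself, named after its values were seen, had 153 ± 22.7 CPM in knockdown and 211 ± 40.6 CPM in control libraries (edgeR adjusted p = 0.327). VHL, which directs HIF to degradation, had a log2 fold change of 0.60 (adjusted p = 0.443), and SIAH2 one of -0.56 (adjusted p = 0.653).

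In the other branches, 20 citric acid cycle genes had 4 higher and 3 lower at an unadjusted p under 0.05, or 35% where 13.5% of all genes were, with a median of 0.17. IDH3A, the catalytic subunit of the NAD-dependent isocitrate dehydrogenase, had 38.8 ± 12.4 CPM in knockdown and 85.9 ± 8.87 CPM in control libraries (log2 -1.15, edgeR adjusted p = 0.098), and passed without cells over 20% mitochondrial reads (log2 -1.33, adjusted p = 0.024). In those cells the edgeR adjusted p of IDH3A was 0.0840 with batch as a block and 0.0409 to 0.118 with a library left out. The 13 tested other glycolytic enzymes had a median of 0.12; TIGAR, a fructose bisphosphatase that lowers fructose 2,6-bisphosphate, had 85.2 ± 27.4 CPM in knockdown and 46.0 ± 8.93 CPM in control libraries (log2 0.89, edgeR adjusted p = 0.215), and ENO3 a log2 fold change of 1.00 (adjusted p = 0.437). The 17 tested genes of pyruvate and lactate handling had a median of 0.02, with PDHX at -0.38 (edgeR adjusted p = 0.322) and SLC16A7 at -0.81 (adjusted p = 0.396). The 8 tested pentose phosphate genes also had a median of 0.02, with PGD at 0.19 (edgeR adjusted p = 0.761) and RPE at -0.48 (adjusted p = 0.675).

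Reads of some genes are uncertain because near-identical copies exist. By name, 13 of the 33 genes have 87 pseudogenes in the table. TPI1 pseudogenes held 24.5% of the reads of gene and pseudogenes together in knockdown and 24.4% in control, those of BNIP3 25.3% in knockdown and 20.5% in control, and the 36 of GAPDH 12.0% in knockdown and 12.8% in control. The division of reads between gene and copies was thus nearly the same in both arms for TPI1 and GAPDH. Exons of 23 genes overlap another annotated gene, 18 on the opposite strand, and the counting is not stated to use strand. For PDK1 the partner AC078883.1 shares 445 bases and had 383 reads in knockdown and 62 in control libraries, opposite in direction to PDK1 itself, and for ANKRD37 the partner UFSP2 shares 909 bases.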

How the data were processed

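The authors deposited one table of raw counts: whole numbers of reads for each gene in each cell, unscaled, with no molecular identifiers. Software and build named in the submitters' processing notes are TopHat2 2.1.0, HTSeq 0.6.1, FastQC 0.11.3, edgeR 3.2.2 and GRCh38.p3. Whether the counting used strand, and with which annotation release, is not given in the sources used here. Of 414 samples, 401 were single cells with a matching column; 4 of 405 columns of values were not used. Names came from a gene table (34891 identifiers) and GENCODE 29 (257 more), whose coordinates and transcript lengths were used.

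For each batch, the cells of an arm were added up to 1 library. The test was the quasi-likelihood test of edgeR 4.0.16 (limma 3.58.1, R 4.3.3), robust, with TMM scaling, filterByExpr at its minimum count of 10 and no covariates. CPM are per TMM-scaled library. P-values were adjusted by Benjamini-Hochberg over 20326 genes, or over 20110 without cells over 20% mitochondrial reads. The common dispersion was 0.497. DESeq2 1.42.0, other filters and scalings, a batch block, a limit of 10% mitochondrial reads and leaving out each library were alternatives. Per-cell shares, levels with a pseudocount of 1 CPM, and isozyme shares were compared by two-sided exact permutation over 6 values. Intervals and limits cover counting error only. The labels' batch number pairs the arms; deviations of same-numbered libraries correlated at 0.0780, 0.000547 and 0.000233. The fits were tested on simulated counts. Python 3.11.15, numpy 2.4.6, pandas 2.3.3, scipy 1.17.1 and matplotlib 3.10.9 were used.

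The 33 genes, the lists and the tests were chosen with earlier results of these data known. Values in every library are given for genes past an adjusted p of 0.05 in a fit, for genes whose arms do not overlap and for the 3 of highest level per length; up to 2 genes of each pathway list are named by call or by size of fold at 5 CPM or more. Promoters are from RefSeq on GRCh38.p14; no window was used for SLC2A3, VEGFA and BNIP3L. Some genes are not reported here.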

Additional observations from a re-analysis of the deposited data

How the results depend on the processing

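The count of all genes called, 158 in edgeR's fit of all cells, was 1442 by DESeq2, 309 without a filter on low counts, 242 with equal weight per cell in limma, 38 with batch as a replicate block, 49 with the block and without cells over 20% mitochondrial reads, and 46 to 69 when each library was left out in turn. Of the 30 listed genes tested, 0 were called in that fit, 2 by DESeq2 and 1 without cells over 20% mitochondrial reads. The median log2 fold change of the listed genes was -0.36 without those cells and with the block. For the fit without those cells, 0 listed genes were called with the block or with any 1 library left out, and 2 by DESeq2. Without those cells DESeq2 called 1458 of all 20110 genes. The PDK1 log2 fold change there was -0.77 with the block (edgeR adjusted p = 0.0997) and -0.87 to -0.66 with a library left out (edgeR adjusted p = 0.0849 to 0.173). The cause was not tested.

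Among small log2 fold changes the sign turned for SLC16A3 with the block (-0.50) and with the block and without cells over 20% mitochondrial reads (-0.58). It turned without those cells for PFKM (-0.031, and -0.023 with the block) and PKM (-0.038, and -0.041 with the block), for PKM without cells over 10% mitochondrial reads (-0.030), and with equal weight per cell for TPI1 (0.086) and ENO1 (0.11). With a library left out, values that crossed 0 ran from -0.11 to 0.058 for TPI1, -0.20 to 0.0045 for ENO1, -0.062 to 0.12 for PKM, -2.14 to 1.40 for SLC16A3, -0.041 to 0.24 for P4HA1, -0.0026 to 0.26 for DDIT4, -0.029 to 0.15 for PFKM and -0.12 to 0.28 for VEGFA. Of 480 log2 fold changes under an alternative, 455 kept direction and side of the threshold. None of the listed genes was past the threshold in edgeR's fit of all cells, so no call could be lost. Of 80 values grouped as counts and medians, 40 stayed the same, 33 moved and 7 were weaker. By less than the spread between batches moved 335 of 363 per-cell levels, 299 of 330 shares of cells and 185 of 187 isozyme shares. With 3 libraries an arm, exact tests cannot go below p = 0.1 (0.25 within batches), and CA9, ADM and SLC2A3 had too few reads to compare.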
